A study of Arabidopsis thaliana with 12 samples.

Results

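Loss of PGR5 function was examined across both genetic backgrounds in which it was tested, with RNA sequencing of fully expanded rosette leaves of Arabidopsis thaliana. All 12 libraries of the series entered: the 6 libraries with pgr5 (3 of pgr5 and 3 of sapx tapx pgr5) were compared with the 6 libraries without it (3 of wild type and 3 of sapx tapx), and the sapx tapx genotype was kept as a covariate, so that each gene has 1 effect of pgr5 averaged over the wild type and the sapx tapx background. Per the labels all plants grew for 18 days in weak light (40 to 60 µmol photons per m2 and second) and were then given 90 min of strong light (1500 in the same unit), and no leaves kept at the lower light were analysed here, so every value is a difference between genotypes after the exposure. The labels name no pgr5 allele and do not say whether wild type is the line in which the mutant arose, so an effect of pgr5 and a difference between lines cannot be told apart. They also do not say whether replicates were separate plants, so p-values measure the spread between these libraries, which may be technical.

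PGR5 is a small thylakoid protein needed for the antimycin-sensitive route of cyclic electron flow, which returns electrons from ferredoxin to the plastoquinone pool and builds up the proton gradient across the thylakoid membrane. In strong light that gradient slows electron transport at the cytochrome b6f complex and switches on the thermal dissipation of absorbed light, and plants without PGR5 are known for damage to photosystem I. SAPX and TAPX are the stromal and thylakoid ascorbate peroxidases, which reduce hydrogen peroxide in the chloroplast, and sapx tapx lacks both.

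Libraries held 4916603 to 6828070 exon reads, and 3 reads, taken as the floor of detection, correspond to 0.439 to 0.610 CPM, the read count scaled to library size, before TMM factors. The CPM levels of genes given here include these factors. PGR5 RNA did not mark the genotype: it lay between 209 and 281 CPM with pgr5 and between 238 and 327 CPM without it (average log2 fold change -0.11 ± 0.09, standard error, adjusted p = 0.442), so the transcript does not check the label. SAPX and TAPX lay between 16.1 and 28.6 CPM in the 6 libraries labelled as mutated in both, against 155 to 250 CPM in the others, as those labels state.

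The most strongly raised transcripts were those of heat shock proteins, and many of the raised heat shock genes carry the heat shock element core near their start, the inverted pair of GAA blocks that heat shock factors bind. The promoter windows of 4 raised genes are shown as examples. HSFA2 is a heat stress transcription factor, and HSP17.4 and HSP17.6B-CI are class I small heat shock proteins that hold unfolding proteins. Fes1A, a partner of cytosolic HSP70, is not a member of the heat shock list. Each window runs from 250 bases before the deposited gene start to 50 bases after it, was read from the RefSeq sequence of the TAIR10.1 assembly at the deposited TAIR10 coordinates, and is written in the direction of the gene. Capitals mark GAANNTTC or TTCNNGAA, matched on either strand and with overlaps allowed.
HSFA2, chr2:11135432-11135731, plus strand: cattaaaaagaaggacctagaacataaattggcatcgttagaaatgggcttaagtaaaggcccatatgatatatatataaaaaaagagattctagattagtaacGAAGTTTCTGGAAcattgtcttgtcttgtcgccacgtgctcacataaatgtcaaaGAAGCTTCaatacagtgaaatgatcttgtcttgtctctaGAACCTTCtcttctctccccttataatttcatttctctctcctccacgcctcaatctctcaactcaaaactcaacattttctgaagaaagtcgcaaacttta
HSP17.4, chr3:16984792-16985091, minus strand: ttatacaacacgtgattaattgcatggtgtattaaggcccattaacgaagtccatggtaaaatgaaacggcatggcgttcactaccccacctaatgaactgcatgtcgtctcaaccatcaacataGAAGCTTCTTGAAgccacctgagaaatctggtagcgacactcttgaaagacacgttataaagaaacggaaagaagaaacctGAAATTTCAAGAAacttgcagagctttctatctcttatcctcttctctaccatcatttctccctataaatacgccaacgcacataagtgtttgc
HSP17.6B-CI, chr2:12633756-12634055, minus strand: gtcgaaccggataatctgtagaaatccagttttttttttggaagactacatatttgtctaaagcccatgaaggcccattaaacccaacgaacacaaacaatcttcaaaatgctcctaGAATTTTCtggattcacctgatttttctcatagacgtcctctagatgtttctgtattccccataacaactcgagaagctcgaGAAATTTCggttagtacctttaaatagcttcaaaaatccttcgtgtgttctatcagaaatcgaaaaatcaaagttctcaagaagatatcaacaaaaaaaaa
Fes1A, chr3:2870795-2871094, plus strand: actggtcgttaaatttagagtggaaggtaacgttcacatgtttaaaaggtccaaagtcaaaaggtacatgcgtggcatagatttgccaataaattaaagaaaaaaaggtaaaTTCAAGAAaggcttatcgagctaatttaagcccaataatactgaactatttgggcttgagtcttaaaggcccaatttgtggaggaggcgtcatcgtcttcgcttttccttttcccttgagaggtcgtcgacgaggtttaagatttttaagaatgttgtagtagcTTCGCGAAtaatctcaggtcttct

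A second pair of windows belongs to genes of the endoplasmic reticulum that fell with pgr5. HSP70-17 is an HSP70-type chaperone gene and CRT1 encodes calreticulin, and capitals mark the G-box, CACGTG.
HSP70-17, chr4:9376487-9376786, plus strand: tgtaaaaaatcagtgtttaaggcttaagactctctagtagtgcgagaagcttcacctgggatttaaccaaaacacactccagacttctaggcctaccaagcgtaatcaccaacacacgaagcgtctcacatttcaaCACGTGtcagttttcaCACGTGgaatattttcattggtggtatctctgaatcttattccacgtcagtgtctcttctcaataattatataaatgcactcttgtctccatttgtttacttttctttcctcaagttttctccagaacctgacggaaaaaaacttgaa
CRT1, chr1:21092611-21092910, minus strand: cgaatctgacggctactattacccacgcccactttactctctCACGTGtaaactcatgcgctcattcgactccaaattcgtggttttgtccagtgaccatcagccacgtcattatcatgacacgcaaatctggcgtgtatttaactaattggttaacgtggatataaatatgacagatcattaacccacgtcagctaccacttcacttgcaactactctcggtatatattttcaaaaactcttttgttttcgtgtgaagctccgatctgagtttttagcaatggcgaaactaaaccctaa

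The heat shock element core was found in 28 of the 34 windows of raised heat shock genes (82.4%), where 20.2% of the windows of all 16350 tested genes hold it. It was present in 89 of 275 genes raised by a log2 fold change of 1 or more (32.4%), in 24.4% of all raised genes and in 18.8% of lowered genes. The G-box was present in 5 of the 10 lowered endoplasmic reticulum genes (50%) and in 9.9% of all tested genes. A spelled endoplasmic reticulum stress element was found in 0 of these 10 and in 0.171% of all. These shares describe the windows and were not tested.

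In the average over both backgrounds 2368 of 16350 tested genes passed the test (14.5%), 1318 of them higher with pgr5 (8.06%) and 1050 lower (6.42%). The counts given for gene lists are to be read beside these shares. Pairing same-numbered libraries of a background in the fit gave 3435 genes, 1844 higher and 1591 lower. The test was edgeR's quasi-likelihood test, with calls at p under 0.05 after Benjamini-Hochberg adjustment over all genes, and 4810 genes had an unadjusted p under 0.05. Many changes were small: the median log2 fold change was 0.57 among higher and -0.48 among lower genes, 559 higher and 550 lower genes changed by less than 0.5, and a further 484 and 384 by 0.5 to 1. Large changes leaned to the higher side, with 77 higher and 29 lower genes at a log2 fold change of 2 or more. The 6 libraries with pgr5 lay wholly above the 6 without it for 587 of the higher genes and wholly below for 449 of the lower genes; over all genes tested this was so for 3.66% and 2.89%, together 6.55%.

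The backgrounds share no library, so the effect of pgr5 in each could be set beside the other. Against wild type 638 genes were called (3.9%), 399 higher (2.44%) and 239 lower (1.46%), and against sapx tapx 1293 were (7.91%), 782 higher (4.78%) and 511 lower (3.13%). With same-numbered libraries of a background paired in the fit, these counts were 1882 (1119 higher, 763 lower) and 2587 (1399 higher, 1188 lower). Of the called genes, 604 of 638 and 1189 of 1293 had the same sign in the other background, and 357 were called in both, 56% of the first set and 27.6% of the second. Over all genes the paired effects had the same sign in 69% and a Pearson correlation of 0.589 (Spearman 0.504), a description over genes that share libraries and depth. Averaging brought in 541 higher and 536 lower genes that were called in neither background on its own. The change was larger in the sapx tapx background for 798 of the 1318 higher and 640 of the 1050 lower genes.

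**Figure D1:**
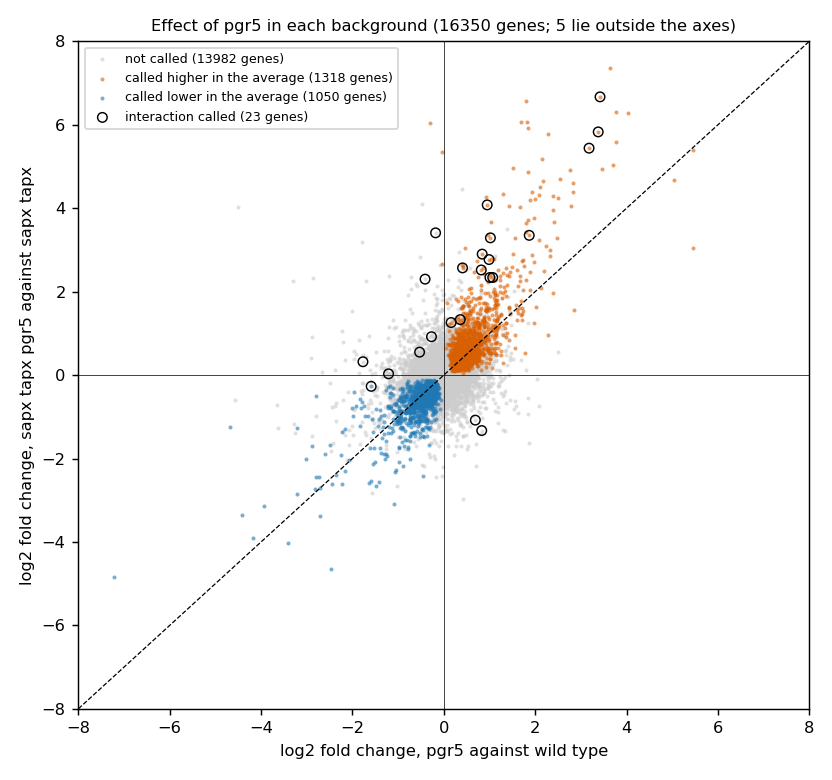
Log2 fold change of pgr5 against wild type (x axis) and of sapx tapx pgr5 against sapx tapx (y axis) for 16350 genes, coloured by the call in the average, with circles for 23 genes whose effects differ in the interaction test and a dashed line of equal effects. Called genes lie along the line, in part because a call in the average favours effects that agree between backgrounds. Most of the strongly raised genes lie above the line, and 5 genes fall outside the axes.

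Genes of heat shock proteins and their transcription factors rose in 34 of 48 cases. Of 54 listed genes these 48 were measured, 0 fell and 14 did not pass, with a median log2 fold change of 1.39 where the median over all genes was 0.00. HSFA2 (AT2G26150, chromosome 2, 11135682 to 11137396) stood at 5.17, 1.56 and 6.61 CPM in wild type, 3.65, 5.06 and 5.32 in sapx tapx, 55.4, 60.3 and 61.4 in pgr5 and 152, 138 and 168 in sapx tapx pgr5. The libraries with and without pgr5 did not overlap, and the triple mutant lay above pgr5 in every library. Its average log2 fold change was 4.39 ± 0.29 (adjusted p = 2.13e-06).

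HSP17.4 gave 0 to 0.945 CPM without pgr5, 8.33, 15.3 and 23.4 in pgr5 and 91.1, 60.9 and 132 in sapx tapx pgr5 (7.14 ± 0.55, adjusted p = 8.73e-06). HSP17.6A, a class II small heat shock protein gene, had 3 reads in the 6 libraries without pgr5 and 2515 in the 6 with it, a scaled ratio of 797 with a 95% interval of 272 to 3866 that covers counting error only. HSP17.6C-CI had 2 reads against 1173, a ratio of 557 (154 to 4608). Both genes were thus close to silent without pgr5 in either background. HSP23.6, a small heat shock protein of mitochondria, rose by 6.05 ± 0.54, and HSP17.6-CII, a cytosolic class II protein gene, by 5.17 ± 0.44. Class I small heat shock protein genes are similar in sequence and may share reads, so their individual values are uncertain.

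The response was not limited to small chaperones. AT1G71000, a gene of the DnaJ co-chaperone type, stood at 0.167 to 1.1 CPM without pgr5, at 7.06 to 10.2 in pgr5 and at 39.7 to 55.0 in the triple mutant (5.5 ± 0.36). Among list members picked after their values were seen, the cytosolic chaperone gene HSP90-1 rose by 4.31, the disaggregase gene HSP101 by 3.34 and HSP70-4 by 3.60 on the log2 scale. Of the chaperones of the chloroplast, HSP90-5 rose by 0.63, HSP70-6 by 0.42 and HSP70-7 by 0.58, while the disaggregase gene CLPB3 had 0.13 ± 0.06 (adjusted p = 0.182) and did not pass. Of the 11 measured heat shock factors HSFA2, HSFA7A and HSFB2B passed and 8 did not, among them HSFA1A, a factor that is present without stress, at -0.19 ± 0.21. In the wild type background 26 list members rose (2.44% of all genes did) with a median of 0.89, and in the sapx tapx background 36 did (4.78% of all genes) with a median of 1.86.

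**Figure D2:**
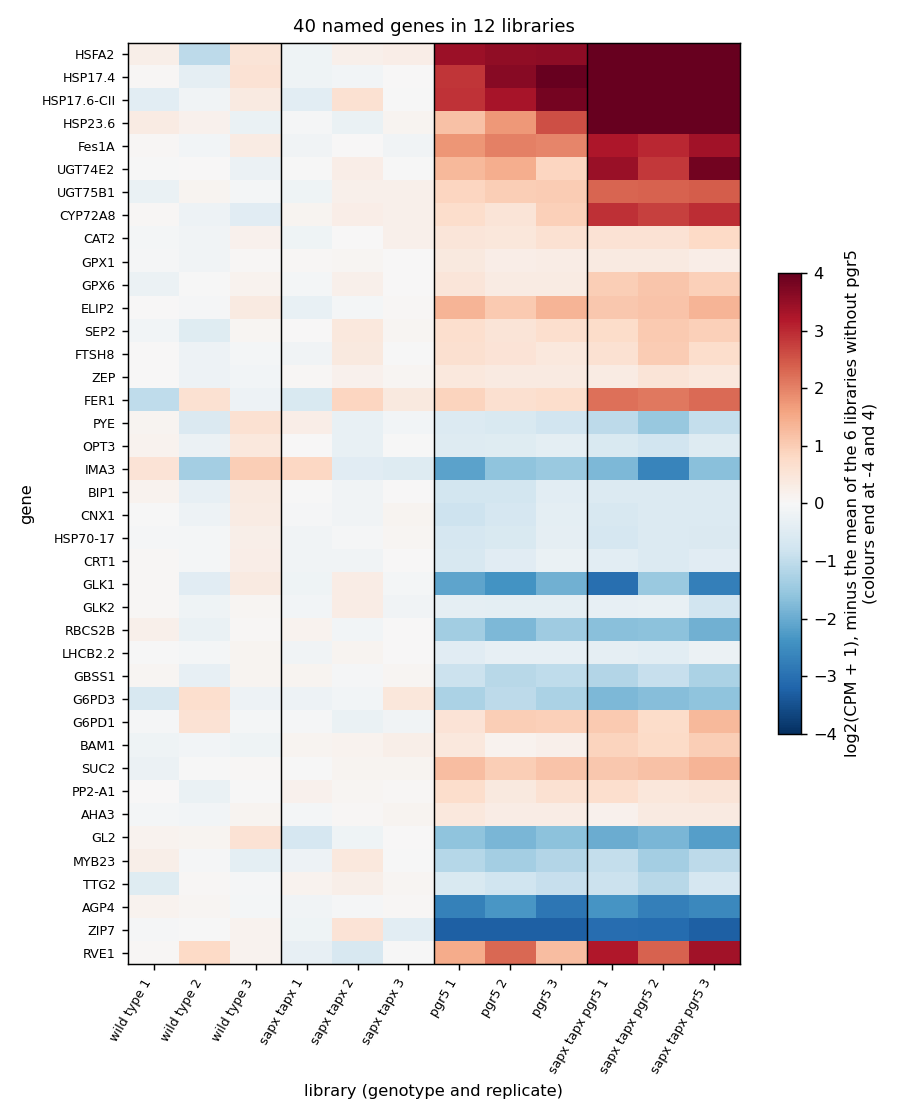
Log2(CPM + 1) of 40 named genes (rows) in the 12 libraries (columns), each minus the mean of the 6 libraries without pgr5, with red for higher and blue for lower values and colours ending at -4 and 4. The small heat shock genes are red in all 6 libraries with pgr5 and deepest in the triple mutant, while AGP4 and ZIP7 are blue in all 6 alike.

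Chaperones of the endoplasmic reticulum went the other way. Of 22 listed genes 21 were measured, 10 fell, 0 rose and 11 did not pass, with a median of -0.30 (-0.38 in the wild type and -0.26 in the sapx tapx background). HSP70-17 stood at 102, 101 and 125 CPM in wild type, 96.9, 102 and 112 in sapx tapx, 66.1, 69.4 and 82.5 in pgr5 and 66.8, 72.6 and 70.1 in the triple mutant (-0.58 ± 0.08, adjusted p = 0.00039). All 6 libraries with pgr5 lay below all 6 without it, at nearly the same level in both mutants. CNX1, the calnexin that retains unfolded glycoproteins, ran from 93.3 to 129 CPM with pgr5 and from 145 to 212 without it (-0.61 ± 0.10, adjusted p = 0.00172). CRT1 fell by 0.47 ± 0.08 and the HSP70-type chaperone gene BIP1 by 0.61 ± 0.11, the latter sharing near-identical sequence with BIP2. The summed level of the list was 1129 to 1381 CPM with pgr5 and 1565 to 1973 CPM without it, while that of the heat shock list was 9644 to 18756 CPM against 5495 to 7377 CPM.

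Of 31 listed genes of photoprotection and thylakoid repair 30 were measured, 11 rose, 1 fell and 18 did not pass. The median over the list was 0.13, with 0.24 in the wild type and 0.08 in the sapx tapx background. ELIP2, an early light-induced protein that binds chlorophyll under light stress, stood at 225, 214 and 282 CPM in wild type, 181, 211 and 230 in sapx tapx, 565, 459 and 565 in pgr5 and 469, 495 and 567 in the triple mutant. Its groups did not overlap, with a log2 fold change of 1.22 ± 0.09 (adjusted p = 8.73e-06), 1.14 in the wild type and 1.3 in the sapx tapx background. The related stress-enhanced protein gene SEP2 rose by 0.76 ± 0.10. FTSH8, a subunit of the protease that removes damaged photosystem II protein, rose by 0.65 ± 0.10, from a range of 634 to 975 CPM to one of 988 to 1480 CPM.

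Enzymes of the xanthophyll cycle were among the genes of small but even effect. ZEP, which converts zeaxanthin back to violaxanthin, ran from 635 to 826 CPM without pgr5 and from 929 to 1038 CPM with it (0.40 ± 0.05, adjusted p = 0.000433). VDE, the enzyme of the opposite step, rose by 0.52 (adjusted p = 0.00181), whereas the carotene hydroxylase gene BCH2 fell by 0.53 on the log2 scale (adjusted p = 0.0021); both were picked after their values were seen. Of 21 measured genes of cyclic electron flow 2 rose and 0 fell, with a median of 0.05, a share near that of all genes. CRR6, an assembly factor of the NDH complex that carries the other route of cyclic flow, had 0.43 ± 0.10 (adjusted p = 0.015), and LHCA6, a linker of that complex to photosystem I, 0.29 ± 0.08 (adjusted p = 0.0279), a call lost in 7 of 23 other settings. With same-numbered libraries of a background paired, 6 of the 21 rose, where 1844 of all 16350 genes did, and 1 rose without replicate 1 or 3 of pgr5, replicate 3 of sapx tapx or replicate 1 of wild type.

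GLK1 (AT2G20570, chromosome 2, 8855358 to 8857756), a transcription factor that promotes genes of light harvesting and chlorophyll synthesis, was among the most lowered genes. It stood at 170, 120 and 210 CPM in wild type, 146, 204 and 156 in sapx tapx, 37.6, 30.8 and 42.8 in pgr5 and 19.4, 58.8 and 23.8 in the triple mutant, without overlap (-2.24 ± 0.24, adjusted p = 0.000102). Its homologue GLK2 fell by 0.43 ± 0.10 (adjusted p = 0.0147). The 16 other measured genes of its list, mostly of chlorophyll synthesis, did not pass, and HEMA1, which encodes the glutamyl-tRNA reductase that starts the pathway, had 0.17 ± 0.06. Without replicate 2 of wild type, sapx tapx and the triple mutant, 3 genes of this list rose and 4 fell, and without replicate 2 of wild type alone 2 rose and 4 fell.

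Among 53 light-harvesting, photosystem and Rubisco genes 9 fell and 3 rose, with a median of -0.06. RBCS2B, a Rubisco small subunit gene, ran from 1237 to 1770 CPM with pgr5 and from 3902 to 5340 CPM without it (-1.64 ± 0.10, adjusted p = 1.62e-06). Near-identical copies can share its reads, and RBCS1A, the most abundant copy, had 0.08 ± 0.07. LHCB2.2, a light-harvesting protein of photosystem II, fell by 0.36 ± 0.06, and LHCB1.1, one of several near-identical copies, by 0.39 ± 0.08. The 9 lower calls became 5 without pgr5 replicate 1, without sapx tapx pgr5 replicate 1 or 3, or without wild type replicate 3, and 14 with same-numbered libraries paired.

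Antioxidant enzyme genes that passed all changed upward. Of 47 measured genes 9 rose, 0 fell and 38 did not pass, with a median of 0.07, where 8.06% of all genes rose and 6.42% fell. CAT2, the main leaf catalase of peroxisomes, stood at 2710 to 3471 CPM without pgr5 and at 4130 to 5200 CPM with it, without overlap (0.58 ± 0.08, adjusted p = 0.000391). The glutathione peroxidase genes GPX1 and GPX7 of plastids rose by 0.32 ± 0.05 and 0.43 ± 0.08, and GPX6 rose by 0.69 ± 0.11. TAPX itself had 0.36 ± 0.07 (adjusted p = 0.00493), with 182, 155 and 173 CPM in wild type against 192, 199 and 210 in pgr5, and at most 19.2 in sapx tapx against 27.0, 27.2 and 24.4 in the triple mutant. That call was lost when the sapx tapx genotype was not a covariate (adjusted p = 0.865), a fit in which 5 antioxidant genes rose.

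Genes that respond to hydrogen peroxide and detoxify reactive products rose in the average, with more calls in the sapx tapx than in the wild type background, and 3 of them passed a test of the difference between backgrounds (the interaction). Of 26 listed genes 20 were measured, 13 rose and 0 fell, with a median of 0.75. In the wild type background 3 rose and the median was 0.19, and in the sapx tapx background 17 rose and the median was 1.49. UGT74E2, a glucosyltransferase of the auxin indole-3-butyric acid, stood at 0 to 0.422 CPM without pgr5, at 1.12 to 2.24 in pgr5 and at 7.39 to 16.2 in the triple mutant (5.11 ± 0.43, adjusted p = 1.94e-05). GSTU24, a glutathione transferase gene, gave 0 to 0.304 CPM in all libraries except the triple mutant, where it stood at 10.6, 5.54 and 7.07, and its average of 4.79 ± 0.60 therefore describes the sapx tapx background.

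The interaction test asked directly whether the effect of pgr5 differed between backgrounds, and 23 genes passed it (0.141%), 21 with a higher (0.128%) and 2 with a lower effect (0.0122%) in the sapx tapx background. With same-numbered libraries of a background paired 171 passed, 119 higher and 52 lower. Of the 23 genes 15 were called in the average, and 5 belonged to the heat shock list. Fes1A, outside that list, rose by 1.87 against wild type and by 3.35 against sapx tapx (difference 1.48 ± 0.18, adjusted p = 0.00993). CYP72A8, a cytochrome P450 gene, rose by 0.99 and 2.77 (difference 1.78 ± 0.22, adjusted p = 0.00993), and AT5G35320, annotated as a DBH-like monooxygenase, by 1.02 and 3.29 (difference 2.27 ± 0.25, adjusted p = 0.0049).

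An average near 0 could also stand for opposite effects. Called in both backgrounds with opposite signs were 3 genes. The calmodulin-like gene CML23 stood at 7.84, 10.6 and 11.5 CPM in wild type and 17.5, 14.7 and 16.2 in pgr5, but at 20.6, 25.5 and 19.6 in sapx tapx and 11.1, 9.85 and 10.1 in the triple mutant. The pgr5 libraries were thus above wild type and the triple mutant libraries below sapx tapx, and the average was -0.21 ± 0.27. RDUF1, a RING-type ubiquitin ligase gene, changed by 0.83 and -1.33, and the thionin gene AT1G66100 by -0.53 and 0.55. SEC10, a subunit of the exocyst complex in vesicle traffic, stood at 53.5 to 54.5 CPM in wild type and 17.1 to 18.7 in pgr5, but at 51.8 to 54.2 in sapx tapx and 38.0 to 47.8 in the triple mutant (difference 1.32 ± 0.14, adjusted p = 0.0049). A near-identical tandem copy can share its reads.

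**Figure D3:**
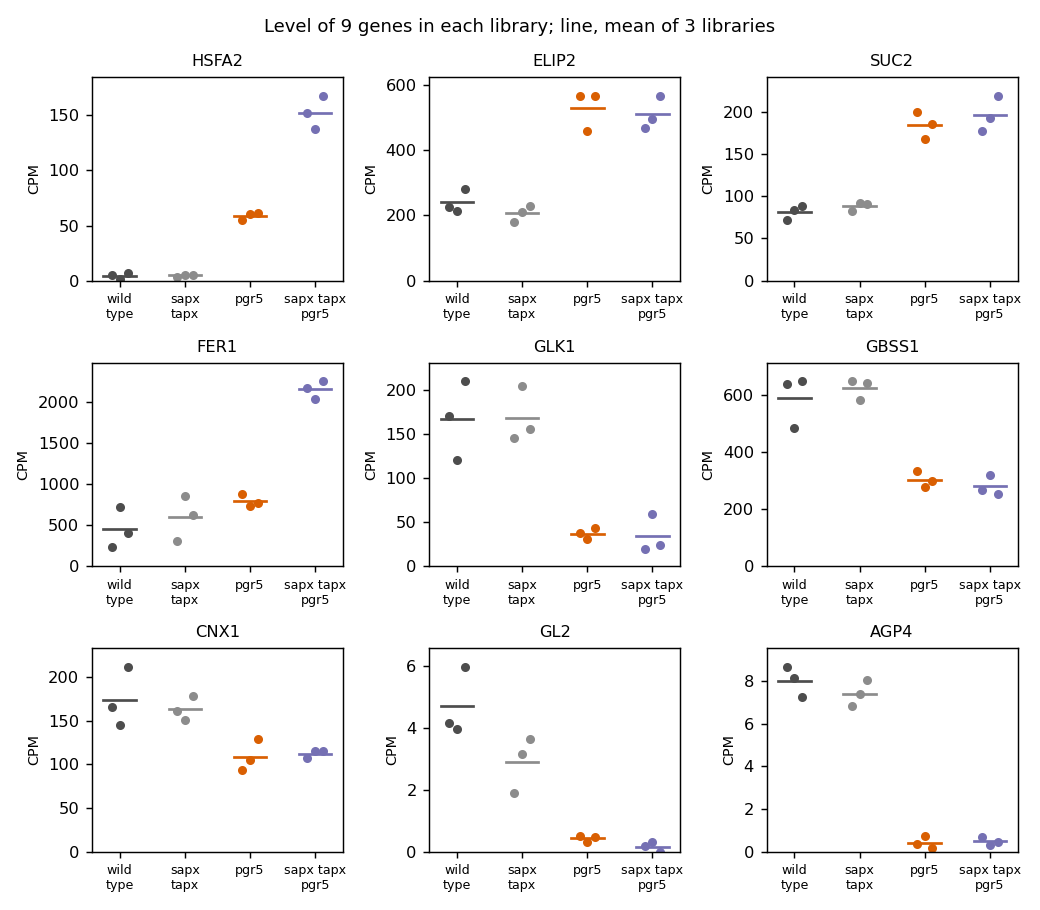
CPM of 9 genes in each of the 12 libraries (points) with the mean of the 3 libraries of a genotype (line), on axes that start at 0. HSFA2 and FER1 are higher in the triple mutant than in pgr5, whereas ELIP2, SUC2, GLK1, GBSS1, CNX1, GL2 and AGP4 sit at similar levels in both genotypes with pgr5.

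Other transcripts had large effects in both backgrounds. AT3G62950, annotated in the thioredoxin superfamily, stood at 0 to 0.346 CPM without pgr5, at 5.27, 7.93 and 4.01 in pgr5 and at 10.2, 4.77 and 9.02 in the triple mutant, with log2 fold changes of 5.46 and 5.39. AT3G44970, a cytochrome P450 gene, rose by 5.03 and 4.68, from at most 0.346 CPM to 3.46 to 10.9 CPM. AT2G33850, an E6-like protein gene, had 655 reads without pgr5 and 1 with it, 689 times as many (counting interval 123 to 27263), and the zinc transporter gene ZIP7 (AT2G04032) 312 against 2, a ratio of 164 (45.1 to 1361). AGP4, an arabinogalactan protein of the cell surface, stood at 6.82 to 8.67 CPM without pgr5 and at 0.16 to 0.748 CPM with it (-4.03 ± 0.23, adjusted p = 1.06e-06). None of these 5 genes passed the interaction test (adjusted p = 0.823 to 1). Genes below the low-count filter included AT5G33370, a GDSL-type lipase gene with 34 reads without pgr5 and 0 with it (at least 11.9-fold lower, floor of 3 reads over the 6 libraries), and AT5G41590 with 0 and 31 reads (at least 9.82-fold higher).

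The called genes were spread over the genome. The share called was 13.8% to 15.3% on each of the 5 nuclear chromosomes and 9 higher and 10 lower genes of 109 tested lay within 1 Mb of PGR5 on chromosome 2. ZIP7 lies in that window, at 1289832 to 1291383, and the other 4 of these genes lie outside it.

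Starch and sugar genes moved in both directions. Of 26 measured genes 5 rose and 5 fell, where 8.06% of all genes rose and 6.42% fell. GBSS1, the granule-bound synthase that makes amylose, stood at 638, 485 and 648 CPM in wild type, 647, 582 and 640 in sapx tapx, 333, 277 and 298 in pgr5 and 268, 320 and 252 in the triple mutant, without overlap (-1.06 ± 0.09, adjusted p = 1.94e-05). The amylase gene BAM1 rose by 0.58 ± 0.08. Of the glucose-6-phosphate dehydrogenases of the plastid, which feed the pentose phosphate pathway, G6PD3 fell by 1.59 ± 0.22 and G6PD1 rose by 0.95 ± 0.15. PGM (AT1G78050), annotated as a phosphoglycerate mutase of glycolysis, fell by 2.41 ± 0.23. Of 12 measured genes of sugar starvation and senescence 4 rose and 1 fell, among them MCCA, a subunit of leucine breakdown, at 1.06 ± 0.18, and TPS11 at 2.79 ± 0.70, whose groups overlapped (0.211 to 8.13 CPM against 5.44 to 43.8 CPM). TPS11 lost its call without sapx tapx replicate 1 or 3 (adjusted p at most 0.0526). The 4 higher calls of this list became 2 without either of these libraries, 6 without wild type replicate 2 (median 0.68 against 0.32), and 7 with same-numbered libraries of a background paired or without replicate 2 of wild type, sapx tapx and the triple mutant.

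Iron homeostasis genes that passed in the average split by role. Of 16 listed genes 11 were measured, 3 rose and 5 fell. The 3 that rose encode ferritins, which store iron, mostly in plastids: FER1 at 1.33 ± 0.30 (adjusted p = 0.0105), and FER3 and FER4 at 0.68 and 0.66. FER1 stood at 232, 725 and 407 CPM in wild type, 308, 854 and 618 in sapx tapx, 873, 730 and 772 in pgr5 and 2173, 2038 and 2253 in the triple mutant, so that pgr5 overlapped the libraries without it and the triple mutant did not. The 5 that fell act when iron is short: the peptide genes IMA1, IMA2 and IMA3, the factor gene PYE and the phloem transporter gene OPT3. IMA3 ran from 1.39 to 4.33 CPM with pgr5 and from 4.85 to 29.0 CPM without it (-2.38 ± 0.42, adjusted p = 0.00274). OPT3 fell by 0.57 ± 0.10 and PYE by 1.19 ± 0.25. The values of IMA1 and IMA2 were -1.88 and -1.99, and these and those of FER3 and FER4 were added after they were seen. The 3 measured genes that did not pass were BTS (0.09), FRO3 (-0.59) and NAS4 (-0.43). In the wild type background 0 genes of the list rose and 1 fell, and in the sapx tapx background 2 rose and 4 fell.

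Clock genes changed in 5 of 19 cases, 4 higher and 1 lower, where 8.06% of all genes rose and 6.42% fell. RVE1, a morning-expressed MYB factor that links the clock to auxin, stood at 2.00, 3.98 and 2.2 CPM in wild type, 1.27, 0.844 and 1.82 in sapx tapx, 6.97, 13.0 and 5.77 in pgr5 and 25.7, 13.9 and 28.3 in the triple mutant, without overlap (2.80 ± 0.42, adjusted p = 0.00101). The evening complex genes LUX and ELF3 moved apart, LUX falling by 0.52 ± 0.10 and ELF3 rising by 0.56 ± 0.13. The list's median was 0.04.

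Smaller groups gave few calls. For flavonoid, salicylate and growth genes the called shares were near those of all genes (8.06% higher, 6.42% lower), so only single genes are described. Of 23 flavonoid genes 2 rose and 2 fell, with MYBL2, a repressor of anthocyanin synthesis, at 1.96 ± 0.38 and PAP1, an activator, at -1.21 ± 0.28; 4 fell without replicate 1 or 2 of wild type or replicate 1 of the triple mutant. The flavonol rhamnosyltransferase gene UGT78D1 fell by 0.69 ± 0.10 (adjusted p = 0.00053). Of 26 genes of abscisic acid, drought and cold 4 rose, among them the dehydrin gene COR47 at 1.07 ± 0.18, and 8 did so without replicate 2 of wild type, sapx tapx and the triple mutant. Glucosinolate genes fell in 3 of 21 cases, the sulfotransferase gene SOT17 by 0.64 ± 0.15 and SOT18 by 0.37 ± 0.08 (5 cases without pgr5 replicate 1), and salicylate genes rose in 1 of 11, PAD4 at 0.54 ± 0.14. Of 13 auxin, brassinosteroid and expansion genes the brassinosteroid synthesis gene CPD rose by 0.53 ± 0.08 and the expansin gene EXPA5 fell by 0.86 ± 0.22. With same-numbered libraries of a background paired, 7 glucosinolate genes and 5 of these growth genes fell.

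Jasmonate and rapid stress genes spread widely among the libraries of a genotype. ERF109, a rapidly induced ethylene response factor, stood at 0.333, 109 and 0.787 CPM in wild type, 99.2, 13.5 and 87.0 in sapx tapx, 9.69, 11.1 and 4.49 in pgr5 and 18.7, 0.616 and 29.8 in the triple mutant. Wild type replicate 2 was far above its group, and replicate 2 of sapx tapx and of the triple mutant were below theirs. Of 27 measured rapid stress genes 0 passed in edgeR (median -0.11), and 4 rose (median 0.35) when these 3 libraries were left out. Of 27 jasmonate genes 1 fell, MYC2, the central factor of jasmonate signalling, at -1.27 ± 0.30 (adjusted p = 0.0137, and 0.0817 without the 3 libraries). The jasmonate median of -1.12 became -0.35 without them, and 5 genes fell with same-numbered libraries paired. On leaving out 1 library, 4 fell without sapx tapx replicate 2, and 3 without the third wild type library.

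**Figure D4:**
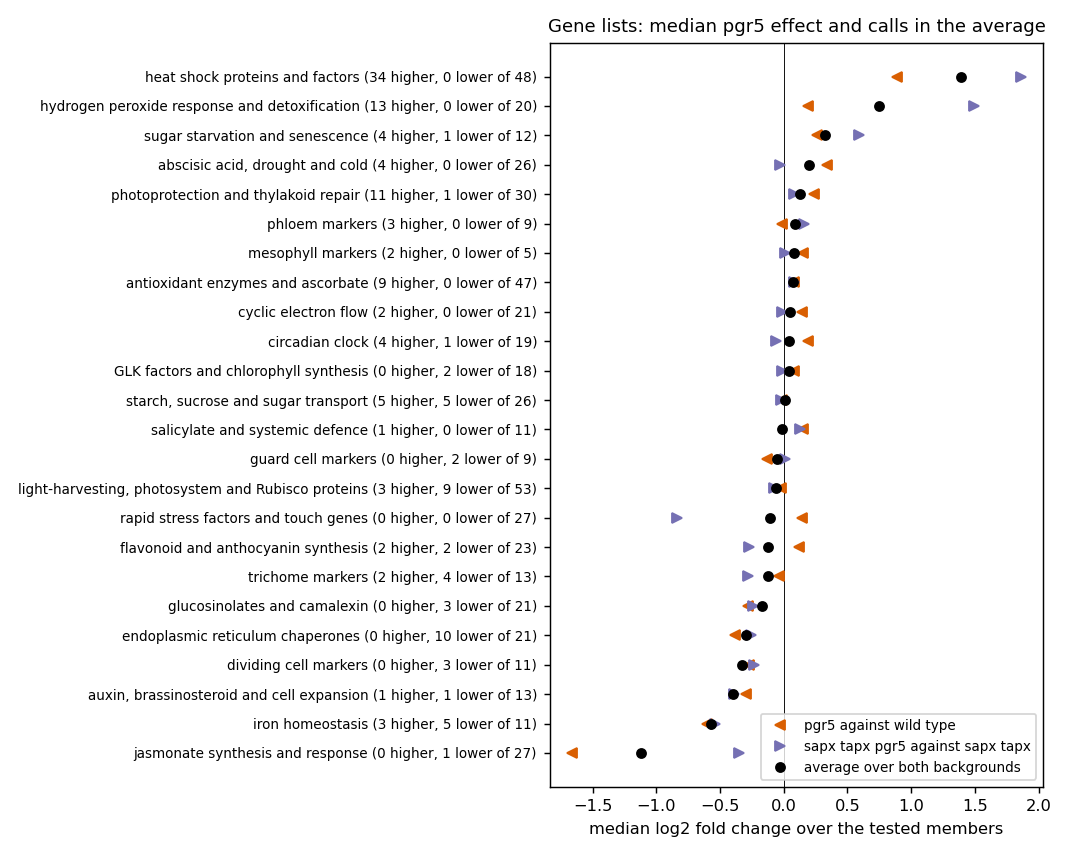
Median log2 fold change over the measured members of each gene list with at least 5 of them (y axis, with calls in the average), for the average (black) and for each background (triangles). Heat shock and hydrogen peroxide lists lie farthest to the right and are larger in the sapx tapx background, at 1.86 and 1.49, while the endoplasmic reticulum list lies below 0 in both.

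Markers of particular cell types also differed, and in whole leaves fewer cells of a type and less RNA per cell cannot be told apart. Of 19 trichome markers 13 were measured, 4 fell and 2 rose. GL2, a homeodomain factor of trichome growth, stood at 4.17, 3.98 and 5.98 CPM in wild type, 1.90, 3.16 and 3.65 in sapx tapx, 0.510, 0.299 and 0.481 in pgr5 and 0.176, 0.308 and 0 in the triple mutant, without overlap (-3.62 ± 0.33, adjusted p = 3.34e-05). MYB23 fell by 2.58 ± 0.33, TTG2 by 1.60 ± 0.28 and ZFP8 by 0.98 ± 0.16, all of them factors of trichome development. These 4 do not stand for the list, whose median was only -0.12 and whose highest value was 1.04, with 3 of the 13 members above 0. GL1, the MYB factor that starts trichome formation, gave 1 read in all 12 libraries together, which says nothing of its allele. The summed level of the trichome list ran from 69.6 to 113 CPM with pgr5 and from 89.2 to 131 CPM without it. Its part in the other results was not tested.

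Of 9 phloem markers 3 rose and 0 fell. SUC2, the sucrose carrier that loads the phloem, stood at 72.0, 83.1 and 87.9 CPM in wild type, 82.4, 91.3 and 90.1 in sapx tapx, 200, 168 and 185 in pgr5 and 177, 193 and 219 in the triple mutant, without overlap (1.17 ± 0.07, adjusted p = 1.62e-06). The phloem lectin gene PP2-A1 rose by 0.56 ± 0.08 and the proton pump gene AHA3 by 0.32 ± 0.06, while FTIP1 had 0.21 ± 0.12 and did not pass. The list's median was 0.09 and its summed level 698 to 792 CPM against 493 to 568 CPM. Of 9 guard cell markers 2 fell (FAMA by 0.37 ± 0.08, KAT1 by 0.38 ± 0.11), and of 11 dividing cell markers 3 fell, PCNA2 by 0.38 ± 0.09, but 1 without pgr5 replicate 2 or without replicate 2 of wild type, sapx tapx and the triple mutant. The guard cell count was 1 in 8 of the 12 omissions of a library. Of the 5 mesophyll markers that define the sampled leaf tissue CA1 and RCA rose, by 0.25 ± 0.05 and 0.27 ± 0.07, and all 5 were abundant in every library, at a summed 52309 to 67730 CPM. Of 4 root markers PYK10 was measured, at 4.09 to 9.91 CPM without pgr5 and 10.2 to 16.4 CPM with it.

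Even small effects were resolved where libraries differed little. The genes with the smallest p among those changed by under 0.5 included PAP26, a purple acid phosphatase, at 138 to 164 CPM without pgr5 and 176 to 199 CPM with it (0.32 ± 0.05, adjusted p = 0.000832), and CRR21, a factor of chloroplast RNA editing, at 39.3 to 42.8 CPM against 48.0 to 58.6 CPM (0.41 ± 0.06). On the lower side AT1G20950, of the phosphofructokinase family, ran from 75.8 to 87.6 CPM without pgr5 and from 56.4 to 65.1 CPM with it (-0.44 ± 0.05, adjusted p = 0.000213). The ribosomal protein gene AT2G37190 fell by 0.35 ± 0.05 and the phospholipid synthesis gene AAPT2 by 0.44 ± 0.06.

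Among the genes called in the average and in neither background alone, those with the smallest p included CAT9, GRF4 and AT5G24890. CAT9, a cationic amino acid transporter, had 0.42 and 0.39 in the backgrounds (adjusted p = 0.0636 and 0.0573) and 0.40 ± 0.08 in the average (adjusted p = 0.00425). GRF4, a growth-regulating factor of leaf expansion, had -1.02 and -0.96 (adjusted p = 0.0621 and 0.0598) and -0.99 ± 0.19 in the average (adjusted p = 0.00422). AT5G24890, annotated as an NST1-like stress response protein, had 0.95 and 0.85 and an average of 0.90 ± 0.17. These genes were chosen because they pass in the average alone, so their passing is not a further result. In the other direction 283 genes were called in a background but not in the average, 68 in the wild type and 218 in the sapx tapx background with 3 in both.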

How the data were processed

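Libraries were made with TruSeq RNA v2, per the labels' protocols, a kit without strand information, so genes that overlap on opposite strands can take each other's reads. Each deposited table, 1 per library, holds read counts and RPKM values per gene. TAIR10 is the build, per the submitters' processing notes; the aligner is not given in the sources used here. The deposited exon length and RPKM were used in a check and in alternatives.

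Total exon reads entered edgeR 4.0.16 (R 4.3.3) with TMM scaling, filterByExpr (16350 of 28642 genes left) and a quasi-likelihood fit with pgr5 and the sapx tapx genotype as additive terms; a fit of 4 genotypes gave the effect in each background and the interaction. P-values were adjusted over all genes tested. Standard errors are those the test statistic implies. On simulated counts for 16350 genes the average fit recovered 89% of 100 genes changed 2-fold and 100% of 100 changed 4-fold, with 8 unchanged genes among 197 calls. The changed genes were drawn from those with a mean above 5 CPM. Counts were independent draws from the additive model, so this covers neither genes of lower level nor paired libraries. Alternatives used DESeq2 1.42.0, limma 3.58.1 on log2(RPKM + 0.5) or log2(RPKM + 0.1), RLE scaling, unique exon reads, no filter, no covariate, a replicate block, and omissions of libraries.

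Replicate numbers come from the labels. Deviations from the group means correlated between same-numbered libraries of a background at 0.188 to 0.612, over 0.1 in each pair. The block within each background was added after seeing these values. Libraries of different numbers were not compared in this way, so it is not known whether the numbers pair the samples. Main counts and p-values come from the fit without this pairing. Between backgrounds, same-numbered libraries of wild type and sapx tapx, or of pgr5 and the triple mutant, correlated at -0.53 to -0.003. Within genotypes, libraries differed by more than sampling noise (chi-square 3.83 to 12.9 per degree of freedom).

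The members and the 25 gene lists (581 genes, 522 list entries tested) were chosen with earlier results of these data known, so no list is independent support. Named were the targeted genes, the 10 largest changes in each direction without overlap and with at least 5 CPM, the 5 smallest p in each direction among changes under 0.5 and among genes called in neither background, up to 4 members per list, 6 interaction genes, genes of opposite effect and 3 genes without a read in 1 group of 6. Others are marked as picked after their values were seen. Symbols came from RefSeq (27997 genes matched, 100% overlapping the same locus) or from the lists.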

Additional observations from a re-analysis of the deposited data

Results flagged for a closer look

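In groups of 6 libraries a gap test of the highest or lowest value picked out 12 values among the named genes, and chance gives about 1 in 20 groups. Named were 144 genes, each with a group of 6 with pgr5 and a group of 6 without, so 12 is no more than chance would give. Each group also mixes 2 genotypes. Of the 12 values, 3 rest on 3, 2 and 1 reads in all, each at a ratio of gap to range of 1: HSP17.6A in wild type replicate 3, HSP17.6C-CI in wild type replicate 1 and AT2G33850 in triple mutant replicate 2. Wild type replicate 2 stood apart from the other libraries without pgr5 for 4 genes: ABCF5 (0.663), GBSS1 (0.628) and ABF4 (0.645) were lowest there and G6PD1 (0.738) was highest, at 56.6 CPM against 31.2 to 36.5. LUX was lowest in wild type replicate 3 (0.632) and PNSB1 highest in sapx tapx replicate 2 (0.7). With pgr5, GLK2 was lowest in triple mutant replicate 3 (0.798, 51.6 CPM against 68.0 to 72.9), PCNA1 lowest in triple mutant replicate 1 (0.686) and CRR6 lowest in pgr5 replicate 1 (0.648).

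The interaction test separated the backgrounds for 11 named genes (log2 difference of the effects, sapx tapx background minus wild type background). Genes of the heat shock list with a larger effect in the sapx tapx background were HSP17.6B-CI (3.25) and HSP17.4B (2.06). The HSP70 partner gene Fes1A, outside that list, had 1.48. UGT75B1 (1.27), CYP72A8 (1.78), AT5G35320 (2.27) and AT1G30070 (1.33) had differences of the same sign. SEC10, which fell mainly in the wild type background, had 1.32, and its near-identical copy can share reads. The genes of opposite effect were CML23 (-1.77), RDUF1 (-2.16) and AT1G66100 (1.07).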

How the results depend on the processing

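The count of genes called in the average ran from 1811 without sapx tapx pgr5 replicate 3 to 3435 with the replicate block within each background, against 2368, and 73.3% to 99.2% of the 2368 were called under each of 23 other settings; none of them changed sign in any. Against wild type the count was 1882 with the block within each background and 210 to 660 when 1 library was left out (lowest, 210 to 350, without any pgr5 replicate or wild type replicate 1 or 3), and against sapx tapx 2587 and 746 to 1523 (lowest without replicate 1 or 3 of either genotype). The interaction count of 23 was 99 in DESeq2, 50 with a replicate block over all libraries, 171 with the block within each background, and 10 to 61 on leaving out 1 library, with 61 without wild type replicate 2, 10 without pgr5 replicate 2 and 13 without pgr5 replicate 1 or sapx tapx replicate 3. The median of the hydrogen peroxide list was 0.93 without the covariate and 0.58 to 0.96 on leaving out 1 library, that of the dividing cell markers -0.12 without 3 libraries (replicate 2 of wild type, sapx tapx and the triple mutant) and -0.38 to -0.21 on leaving out 1, and that of clock genes 0.00 to 0.13 on leaving out 1. AT1G66100, not called, had -0.01 with limma at either pseudocount, and -0.08 to 0.11 over the 12 omissions. Among called named genes, CDKB2;1 lost its call in 10 settings, KAT1 in 9, LHCA6 in 7, MYB29 in 6, P5CS1 in 4 and RCA in 3, and 8 others in 1 or 2. The value of CSLA01 was -1.72 without the 3 libraries, against -2.71. GSTU24 had 2.65 (adjusted p = 0.192) as the mean of both backgrounds' effects. On the log2(RPKM + 0.5) scale the changes of 11 genes with few reads were smaller by over 1.5 times. The causes were not tested. Genes below about 1 CPM are limited by depth.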

Other observations

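Gene families named by the RefSeq product, chosen after their values were seen and therefore without a test, added groups outside the lists. Of 295 ribosomal protein genes 53 fell and 2 rose with pgr5, with a median of -0.12, where 6.42% of all genes fell. Between 47 and 89 fell under 7 other settings, but 24 without replicate 2 of wild type, sapx tapx and the triple mutant. Of 73 leucine-rich repeat receptor kinase genes 13 fell and 3 rose, with a median of -0.16 in each background. Of 164 RING or U-box genes, most of them ubiquitin ligases, 24 rose and 2 fell, and among 46 DnaJ-domain genes 9 rose and 0 fell, where 8.06% of all genes rose.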
